A study of Mus musculus with 36 samples.

Results

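The 10 genes described here are cyclins, a cyclin-dependent kinase (CDK) and CDK inhibitors that act at the passage from G1 into S phase, out of 22350 protein-coding genes placed on the same replication timing (RT) maps. They were chosen by name and comprise the D-type cyclins Ccnd1, Ccnd2 and Ccnd3, the E-type cyclins Ccne1 and Ccne2, the kinase Cdk6, and the inhibitors Cdkn1a, Cdkn1b, Cdkn2a and Cdkn2b. Each gene was placed by its annotated start on the mm9 genome, and all 10 were found and received a state in each of the 3 maps. The maps come from Repli-seq. Cells in culture take up the nucleotide analogue BrdU as they copy their DNA and are sorted by DNA content into an early and a late part of S phase, and RT is the log2 ratio of BrdU-labelled reads between these parts. The map of CH12 shLacZ cells rests on 4 libraries from a mouse B cell lymphoma line, grown in medium with IL4, CD40 and TGF beta stimulation and infected with a lentivirus that expresses an shRNA against LacZ, the control for infection, with puromycin selection. The map of priB WT cells rests on 4 libraries from activated primary splenic B cells of Rif1+/+ mice, whose age the labels do not give. In both groups the 4 libraries are 2 early and 2 late fractions. The study's methods call separately sorted samples of a fraction technical replicates and elsewhere derive sequencing replicates of CH12 cells from different frozen vials. A further map is named for wild-type mouse embryonic fibroblasts (MEF WT). The labels tie it to no sample of the series, and the study credits its MEF Repli-seq data to earlier work. The other 5 of the 7 groups, which carry a Rif1 knockout, an Mcm6 knockdown or a combination of them, were not analysed here.

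D-type cyclins bind Cdk4 or Cdk6 and E-type cyclins bind Cdk2, and these complexes phosphorylate the retinoblastoma protein, which releases E2F transcription factors and commits the cell to S phase. Cip/Kip inhibitors act mainly on Cdk2 complexes, and INK4 inhibitors bind Cdk4 and Cdk6. Chromosomes replicate in large domains, and domains that replicate early in S phase are generally rich in genes and open chromatin.

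Each map assigns the 20 kb bins that it covers to an early state (E), a middle state (M) or a late state (L). A domain is a run of bins of the same state, and the covering domain of a gene is the domain that holds its start. Since the replicates had been pooled ahead of state calling, each condition is represented by 1 map, the values below carry no replicate error, and no test between maps could be made. The states were called separately in each map. The study's methods give RT values smoothed over a 300 kb span, without stating separately how the MEF map was made. An edge, or a domain shorter than that span, is therefore less certain than the interior of a long domain. In the CH12 map, protein-coding gene starts numbered 18.9 per Mb in E, 8.41 in M and 3.76 in L, and E and L domains touched in 0 places in each map. Of 8 B cell marker genes, 6 lay in E in CH12 cells, with Ebf1 and Blk in M, and 8 lay in E in primary B cells. Of 8 fibroblast marker genes, 7 lay in E in the MEF map, with Twist1 in M, against 2 in each B cell map. However, 6 of the B cell markers also lay in E in the MEF map, and all 4 T cell markers lay in E in both B cell maps, so the state of a marker does not by itself identify a cell type.

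The first question was in which RT state the members lie in each cell type. In CH12 cells, 6 of the 10 members had their start in E, against 50.6% of all protein-coding genes. In primary B cells 6 members were in E, against 58.0% of all genes, and in the MEF map 7 were in E, against 58.6%. The remaining members were in M. These shares are close to those of all genes. None of the 10 members was in L in any map, and 24.0% of all protein-coding genes were in L in at least 1 map. In the CH12 map alone, 22.1% of all genes were in L. In the lists of other G1/S genes and of G2/M genes described below, 2 of 30 (6.67%) and 2 of 18 (11.1%) were in L in at least 1 map. All 3 lists are small, and no test was made. The members in E were not the same genes in each map. Ccnd3, Ccne2, Cdkn1a and Cdkn1b were in E in all 3 maps, which makes 4 of 10 members against 43.9% of all genes, and Cdk6 was in M in all 3. The other 5 members, Ccnd1, Ccnd2, Ccne1, Cdkn2a and Cdkn2b, were in E in at least 1 map and in M in another.

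**Figure D1:**
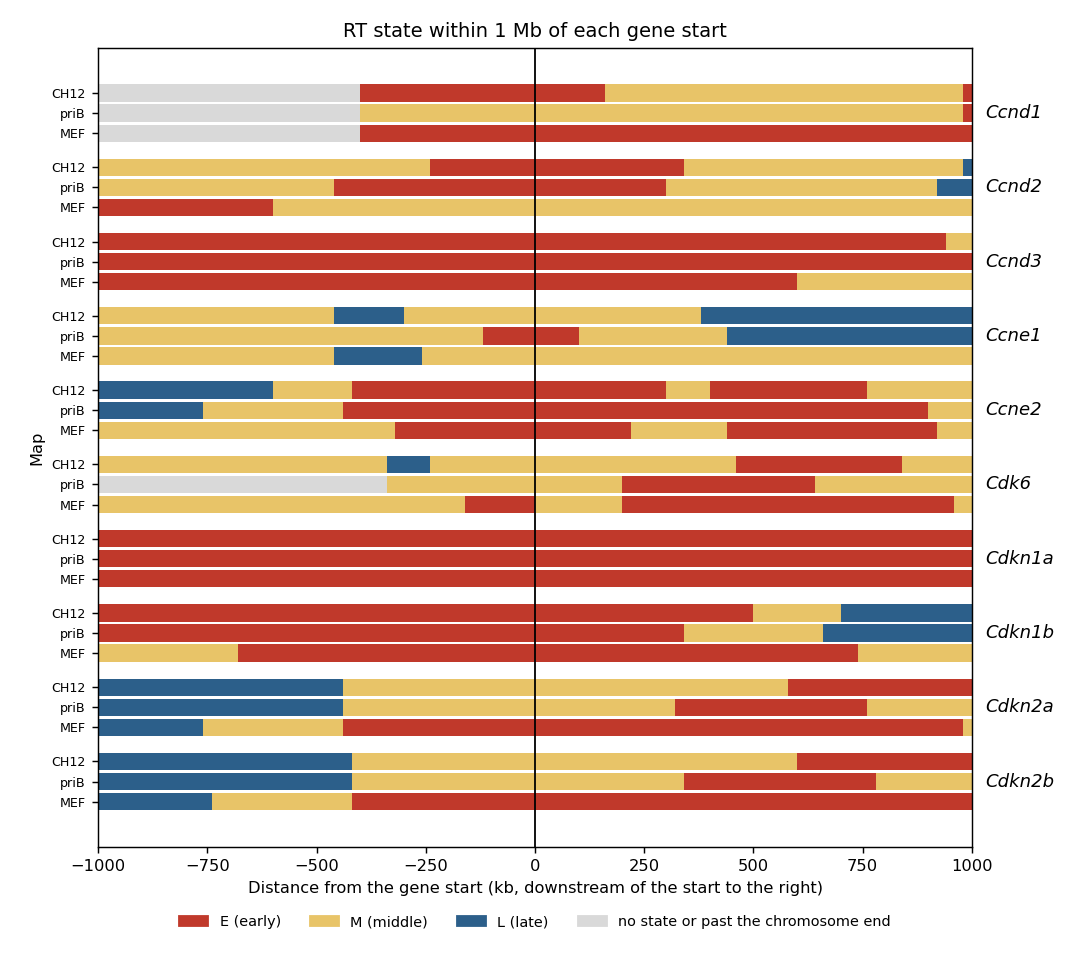
RT state along 1 Mb to either side of the start of each of the 10 genes in the CH12 shLacZ, priB WT and MEF WT maps, sampled every 20 kb and turned so that transcription runs to the right (x axis, kb from the gene start at 0). At the vertical line all 3 strips are E for Ccnd3, Ccne2, Cdkn1a and Cdkn1b, all 3 are M for Cdk6, and the strips of the other 5 genes hold both E and M.

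The 3 D-type cyclins had different patterns over the maps. Ccnd1 encodes cyclin D1, which normal B cells express little and which a translocation activates in human mantle cell lymphoma. It lies at chr7:152115836-152125774 on the minus strand, close to the end of the chromosome. In CH12 cells Ccnd1 was in an E domain of 565 kb, in primary B cells in an M domain of 1385 kb, and in the MEF map in an E domain of 4605 kb. All of these domains ran to the end of the chromosome, 399 kb from the gene start, and differed at the other edge, which lay 166 kb from the start in CH12 cells, 986 kb in primary B cells and 4206 kb in the MEF map. Thus the gene lay near the inner edge of a short early domain in CH12 cells and deep in a long early domain in the MEF map. Within 1 Mb of the start, 41.4% of windows were E in CH12 cells, 1.43% in primary B cells and 100.0% in the MEF map. Only 1.44% of all protein-coding genes shared the pattern of E in CH12 cells, M in primary B cells and E in the MEF map.

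Ccnd2 encodes cyclin D2, which is induced when mature B cells are stimulated through their antigen receptor. It lies at chr6:127075797-127101066 on the minus strand. The gene was in E in both B cell maps, in a domain of 580 kb in CH12 cells and 760 kb in primary B cells, and each was flanked by M on both sides. The low-coordinate edges of these domains lay 40 kb apart and the high-coordinate edges 220 kb apart. The gene start lay 239 kb from the nearer edge in CH12 cells, which is within the 300 kb smoothing span, and 301 kb in primary B cells. In the MEF map the gene was in an M domain of 2040 kb between E domains, 599 kb from the nearer edge. An E domain around Ccnd2 was therefore called in the B cell maps only, and 4.47% of all protein-coding genes had this pattern.

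Ccnd3 encodes cyclin D3, which germinal centre B cells need to proliferate. It lies at chr17:47642000-47736632 on the plus strand and was in E in each map, in domains of 3400 kb in CH12 cells, 3320 kb in primary B cells and 3080 kb in the MEF map. Its start was 598 kb or more from the nearest edge. The covering domains held 88, 90 and 76 protein-coding gene starts in the same order. A second protein-coding transcript starts 88.4 kb downstream and lay in E in all maps as well.

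The sequence directly upstream of the start is shown for 4 of the 5 members whose state differed between maps, Ccnd2, Ccne1, Cdkn2a and Cdkn2b, since these are starts at which the maps disagree. Each stretch is 250 bases of mm9 read 5′ to 3′ on the strand of the gene and ends at the base before the annotated start, and capitals mark CpG dinucleotides.
Ccnd2, chr6:127101067-127101316, minus strand: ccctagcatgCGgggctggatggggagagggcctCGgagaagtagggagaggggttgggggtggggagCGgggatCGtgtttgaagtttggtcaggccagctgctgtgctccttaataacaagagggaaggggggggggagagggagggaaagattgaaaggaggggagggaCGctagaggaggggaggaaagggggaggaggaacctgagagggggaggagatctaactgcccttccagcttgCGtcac
Ccne1, chr7:38892554-38892803, minus strand: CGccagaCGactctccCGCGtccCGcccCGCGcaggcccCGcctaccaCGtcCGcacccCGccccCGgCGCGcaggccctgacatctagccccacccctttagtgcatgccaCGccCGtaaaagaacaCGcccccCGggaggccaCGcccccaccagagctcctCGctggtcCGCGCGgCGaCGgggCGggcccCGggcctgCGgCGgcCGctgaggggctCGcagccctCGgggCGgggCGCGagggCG
Cdkn2a, chr4:88940558-88940807, minus strand: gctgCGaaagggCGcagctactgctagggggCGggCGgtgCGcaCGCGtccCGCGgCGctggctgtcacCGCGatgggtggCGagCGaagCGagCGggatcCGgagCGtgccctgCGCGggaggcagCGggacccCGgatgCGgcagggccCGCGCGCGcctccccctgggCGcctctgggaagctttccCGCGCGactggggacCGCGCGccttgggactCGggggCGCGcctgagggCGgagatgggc
Cdkn2b, chr4:88956942-88957191, minus strand: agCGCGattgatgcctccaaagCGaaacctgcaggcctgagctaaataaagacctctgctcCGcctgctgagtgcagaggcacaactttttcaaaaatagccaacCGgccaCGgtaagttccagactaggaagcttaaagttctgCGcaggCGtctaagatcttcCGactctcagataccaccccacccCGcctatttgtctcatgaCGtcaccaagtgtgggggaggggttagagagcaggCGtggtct
The Cdkn2a stretch held 38 CpG dinucleotides and the Ccne1 stretch 36, whereas Cdkn2b held 12 and Ccnd2 held 6. The median over 22345 protein-coding genes with a fully known upstream sequence was 8. Over the 5 members with the same state in all 3 maps the count ran from 2 in Cdkn1a to 36 in Ccne2, so the ranges overlapped. Of the upstream stretches of 9 members, 1 held the E2F letters TTTCCCGC, TTTCGCGC, TTTGCCGC or TTTGGCGC on either strand, against 2.15% of all protein-coding genes. This was Cdkn2a, with TTTCCCGC on the strand of the gene from 65 to 58 bases upstream of the annotated start, which is that of p19ARF. Upstream of the p16INK4a start, the same length held 7 CpG dinucleotides and 0 matches. A match to these letters is not evidence of binding, and most E2F sites differ from them.

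Both E-type cyclins activate Cdk2, but their RT domains differed. Ccne1, at chr7:38883003-38892553 on the minus strand, was in M in CH12 cells, in a domain of 680 kb flanked by L on both sides. In primary B cells it was in an E domain of only 220 kb flanked by M, and its start lay 92.6 kb from the nearer edge. In the MEF map it was in an M domain of 3060 kb between E and L, 267 kb from the L side. The E domain of primary B cells ranked 614 of 660 E domains by length and is shorter than the smoothing span. It held 4 protein-coding gene starts. Over 1 Mb to either side of the start, E windows made up 0.0% in CH12 cells, 11.0% in primary B cells and 0.0% in the MEF map, and 39, 28 and 10 of the 100 windows were L. Of all protein-coding genes, 3.4% had this pattern of M, E and M.

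Ccne2, at chr4:11118498-11131926 on the plus strand, was in E in all maps. Its domain measured 720 kb in CH12 cells, 1340 kb in primary B cells and 540 kb in the MEF map, each flanked by M. The low-coordinate edge moved over 120 kb between the 3 maps and the high-coordinate edge over 680 kb. Beyond that edge, the CH12 and MEF maps had a short M domain where the primary B cell map had continuous E.

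Cdk6 encodes the kinase that pairs with D-type cyclins in many blood cells. The gene spans 179 kb at chr5:3343893-3523218 on the plus strand, near the beginning of the assembled chromosome, and was in M over its whole length in each map. The domain measured 700 kb in CH12 cells, 540 kb in primary B cells and 200 kb in the MEF map. In the MEF map its start lay 3.89 kb from an edge with E, which is less than 1 bin, so the assignment of the start to M rests on that bin. E lay on the high-coordinate side of the gene in all 3 maps, and the edge was at the same position in primary B cells and in the MEF map, 196 kb from the start. In primary B cells the domain began where the map of this chromosome begins. There, 33 of the 100 windows within 1 Mb of the start had no state, whereas all 100 had a state in the other maps.

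Both Cip/Kip members were in E in every map. Cdkn1a, which encodes p21 and is a target of p53, lies at chr17:29227924-29237667 on the plus strand. Its covering domain measured 6660 kb in CH12 cells, 6700 kb in primary B cells and 6780 kb in the MEF map. These ranked 2 of 555, 1 of 660 and 8 of 567 E domains by length. The edges moved by 80 kb or less over the 3 maps, and 213, 215 and 215 protein-coding genes started inside, close to 32 per Mb. All 100 windows within 1 Mb of the start were E in each map.

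Cdkn1b, which encodes p27, lies at chr6:134870419-134875531 on the plus strand. Its E domain measured 1620 kb in CH12 cells, 1440 kb in primary B cells and 1420 kb in the MEF map. The lengths were alike, but in the MEF map both edges lay further along the chromosome, with a range of 440 kb at the low edge and 400 kb at the high edge. In the B cell maps an L domain lay within 1 Mb downstream, with 15 of 100 windows in L in CH12 cells and 17 in primary B cells, and in the MEF map 0 windows were L.

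The INK4 inhibitors Cdkn2a and Cdkn2b lie next to each other on chromosome 4, with starts 16.4 kb apart, and shared their covering domain in each map, so they are a single observation of the domain. Cdkn2a, at chr4:88920377-88940557, encodes p16INK4a and, from an upstream first exon, p19ARF. Cdkn2b, at chr4:88952198-88956941, encodes p15INK4b. Both are on the minus strand. In both B cell maps the pair lay in M between an E domain on the low-coordinate side and an L domain on the high-coordinate side. This M domain was chr4:88360001-89380000 in CH12 cells (1020 kb) and chr4:88620001-89380000 in primary B cells (760 kb). In the MEF map the pair lay in an E domain, chr4:87960001-89380000 (1420 kb), flanked by M. The high-coordinate edge was at the same 20 kb position in all 3 maps, 439 kb from the start of Cdkn2a and 423 kb from that of Cdkn2b. At this edge M gave way to L in the B cell maps and E gave way to M in the MEF map, so the position of the edge was shared while the states on its sides differed. The low-coordinate edge ranged over 660 kb.

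Of the windows within 1 Mb of the Cdkn2a start, 21.0% were E in CH12 cells, 22.0% in primary B cells and 71.0% in the MEF map, and 28.0%, 28.0% and 12.0% were L. The start of the p16INK4a transcript, 12.5 kb downstream of that of p19ARF, had the same states. The pattern of M, M and E was found for 5.71% of all protein-coding genes. The MEF E domain held 39 protein-coding gene starts, of which 15 carry interferon names. Only 4 of the 39 had the same states as the INK4 pair in all maps, namely Mtap, Cdkn2a, Cdkn2b and Dmrta1, while 24, of which 8 carry interferon names, were in M in CH12 cells and in E in primary B cells. A further 2 were in E in CH12 cells and in M in primary B cells. The remaining 9, of which 6 carry interferon names, were in E in all 3 maps. The B cell maps thus had the same state at the INK4 genes and differed at some of the genes on the low-coordinate side. All 24 genes in M in CH12 cells and in E in primary B cells started between 88360 and 88620 kb. These positions are the low-coordinate edges of the M domain around the INK4 pair in the 2 maps. The 24 genes thus mark a single edge shift of 260 kb, less than the 300 kb smoothing span, and are not separate observations. Genes without interferon names were not checked for relation to the interferon genes. These neighbours were examined after the states were seen. The Ifna genes among them are closely related copies, and only uniquely aligned reads entered the B cell maps. Whether this affected the states was not tested.

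Between CH12 and primary B cells, 2 of 10 members differed in state, Ccnd1 and Ccne1, against 21.5% of all protein-coding genes. Ccnd1 was in E in CH12 cells and M in primary B cells, and Ccne1 the other way round. Between CH12 cells and the MEF map 3 members differed, Ccnd2, Cdkn2a and Cdkn2b, against 29.9% of all genes. Between primary B cells and the MEF map 5 members differed, Ccnd1, Ccnd2, Ccne1, Cdkn2a and Cdkn2b, against 25.0%. With Cdkn2a and Cdkn2b counted once, 2 of 9 differed between CH12 cells and the MEF map. Between primary B cells and the MEF map, 4 of 9 then differed. No member was in L in any map, so none could have differed between E and L in these comparisons. The comparisons share maps, and with 10 members each gene is 10% of the list. Leaving out members within 300 kb of a domain end in either map left 0 members that differed between CH12 and primary B cells, since Ccnd1 in CH12 cells and Ccne1 in primary B cells lay within that distance. This step also left out Ccnd2 and Cdk6. Of all protein-coding genes, 49.5% in CH12 cells and 48.6% in primary B cells lay within that distance. The share of all genes that differed after this step is not given, so the 0 is not a result about the members.

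Over the 3 maps, domain length ran from 3080 to 3400 kb for Ccnd3 and from 540 to 1340 kb for Ccne2. It ran from 6660 to 6780 kb for Cdkn1a and from 1420 to 1620 kb for Cdkn1b. For Cdk6, in M in all 3 maps, it ran from 200 to 700 kb. Among members whose state differed, it ran from 220 to 3060 kb for Ccne1 and from 565 to 4605 kb for Ccnd1. The covering domains ran from 565 to 6660 kb in CH12 cells, from 220 to 6700 kb in primary B cells and from 200 to 6780 kb in the MEF map. The median over members was 870.0 kb in CH12 cells, 1050 kb in primary B cells and 1730 kb in the MEF map, beside 1520, 1480 and 2040 kb over all protein-coding genes. Members in E had a median of 1170 kb in CH12 cells, 1390 kb in primary B cells and 1420 kb in the MEF map, beside 2200, 2100 and 2660 kb over all genes in E. However, Ccnd3 and Cdkn1a lay in longer domains than the median gene in E in all 3 maps, and Ccnd1 did so in the MEF map. Ccnd1, Ccnd2 and Ccne2 in CH12 cells were among the members in short early domains, at 565, 580 and 720 kb. The median distance to the nearer end was 365 kb, 343 kb and 431 kb over members, beside 304, 313 and 415 kb over all genes. Members within 300 kb of an end numbered 3, 2 and 3 in CH12 cells, primary B cells and the MEF map, beside 49.5%, 48.6% and 39.8% of all genes.

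**Figure D2:**
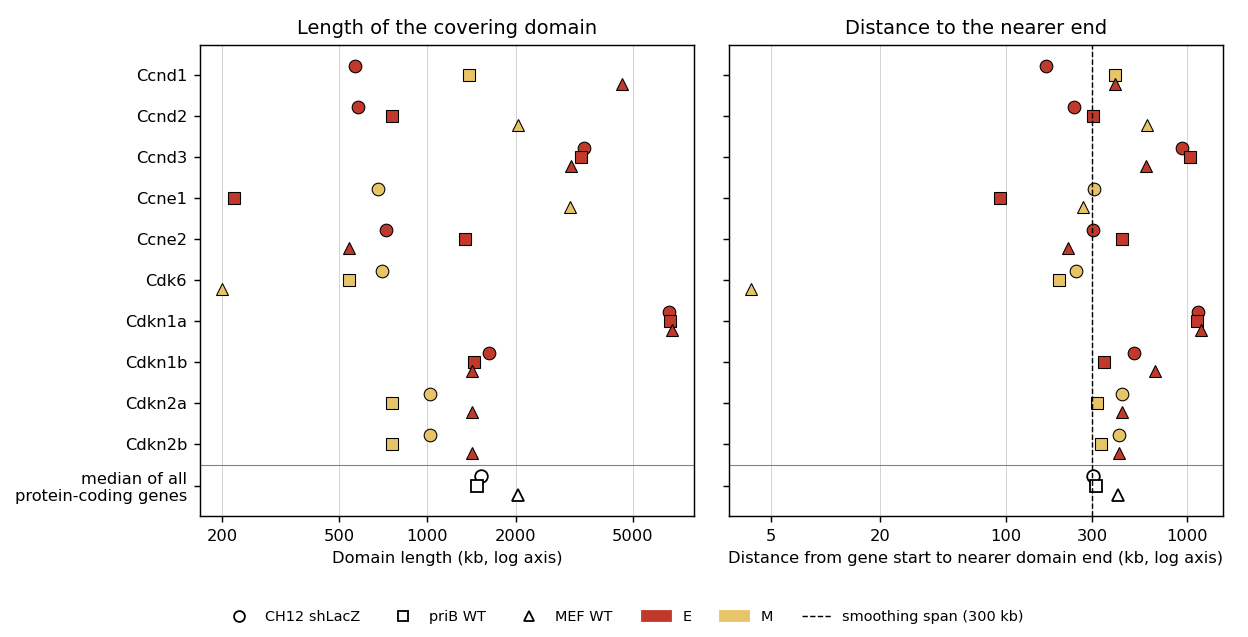
Length of the covering domain (left, kb, log axis) and distance from the gene start to the nearer domain end (right, kb, log axis) for each gene and map, with marker shape for the map, colour for the state and open markers for the median of all protein-coding genes. Cdkn1a lies at 6660 to 6780 kb in all maps, Ccne1 in primary B cells and Cdk6 in the MEF map lie lowest at 220 and 200 kb, and points left of the dashed line are nearer to an end than the 300 kb smoothing span.

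Listed here are the genes nearest to each member among those that shared its covering domain in all 3 maps. For Ccnd1 these were Oraov1, 24.8 kb away, and Fgf15, 43.3 kb away, among 7 such genes. For Ccnd2 they were 9630033F20Rik and Fgf23 among 9, for Ccnd3 Taf8 and 1700001C19Rik among 75, and for Cdkn1a Rab44 and Srsf3 among 212. Ccne1 shared its 3 domains with 3 genes, the nearest of which were 1600014C10Rik and C80913, and Cdk6 with 1, Gm17590. For Ccne2 the nearest were Trp53inp1 and Ints8 among 8, for Cdkn1b Gpr19 and Apold1 among 14, and for Cdkn2a and Cdkn2b each other and Mtap.

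Other genes of the same transition were set beside the members. In the list of 30 further G1/S genes, which holds the partner kinases Cdk2 and Cdk4, the retinoblastoma family, E2F factors and other inhibitors, 18 were in E in CH12 cells, 21 in primary B cells and 25 in the MEF map. Of these, 2 were in L in at least 1 map. Ccna1, a germ cell cyclin, was in L in both B cell maps and in E in the MEF map, and Ccnh, the cyclin of the CDK-activating kinase, was in L in CH12 cells and in M in the others. Between CH12 and primary B cells 6 of the 30 differed in state. Rbl2, E2f3, E2f8 and Tfdp2 were in M in CH12 cells and in E in primary B cells, Ccnh was in L and M respectively, and Mnat1, which assembles the CDK-activating kinase, was in E and M. Of the inhibitors in this list, singled out after their states were seen, Cdkn2c had the same pattern as Cdkn2a and Cdkn2b, with M in both B cell maps and E in the MEF map, whereas Cdkn1c and Cdkn2d were in E in all 3. The start of Cdkn2c lay 39.8 kb from an edge in both B cell maps and 0.206 kb from an edge in the MEF map, so its state there rests on 1 bin. Cdkn1c lay in the same E domain as Ccnd1 in the MEF map and in shorter E domains of 580 and 560 kb in CH12 and primary B cells.

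**Figure D3:**
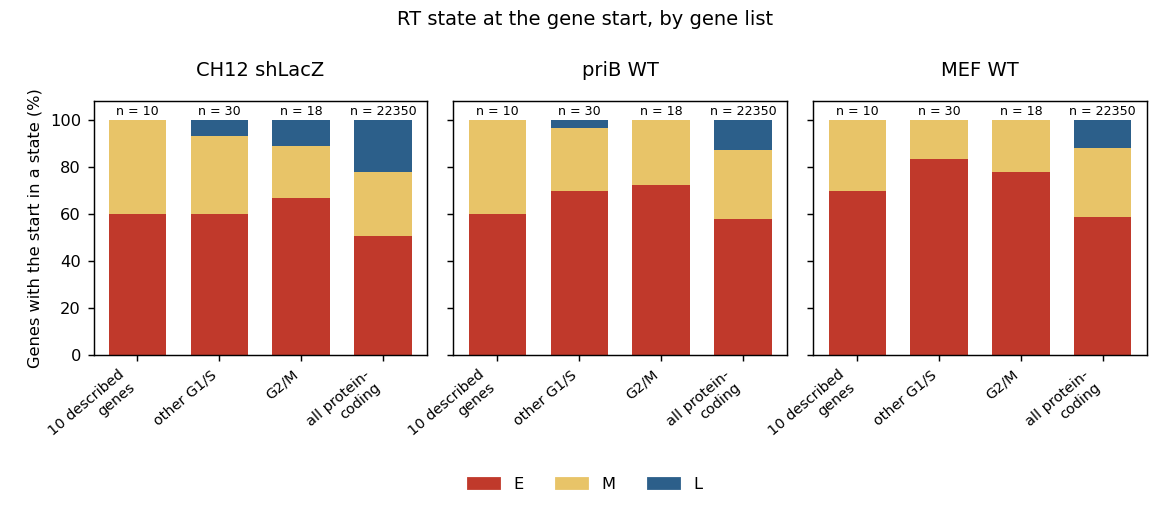
Share of genes (y axis, percent) with their start in E, M or L in each map, for the 10 genes described, 30 other G1/S genes, 18 G2/M genes and all 22350 protein-coding genes. E holds 6, 6 and 7 of the 10 genes in CH12, primary B cell and MEF maps, beside 50.6%, 58.0% and 58.6% of all genes, and L holds 0.0% of the 10 genes in each map.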

How the data were processed

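Repli-seq domain maps of CH12 shLacZ, priB WT and MEF WT cells were used. According to the methods, the authors trimmed reads with Trim Galore 0.6.5, aligned them to mm9 with BWA 0.7.17, kept unique alignments with SAMtools 1.9, merged replicates and removed duplicates. Log2 early to late ratios in 20 kb windows were loess smoothed with a 300 kb span and segmented into 3 states with hmm_bigwigs. How the MEF map was made is not stated separately. The deposited maps list domains by start, end and state number, without RT values or read counts, so read depth is unknown. Smoothing blurs edges, and the RT values that separate states can differ between maps.

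State numbers 2, 1 and 0 were read as E, M and L in the B cell maps and 0, 2 and 1 in the MEF map. Domain ends matched the mm9 length on all 20 chromosomes. Genes came from GENCODE M1, and upstream sequence (250 bases) from mm9. Distances run from the gene start to the nearer end of the covering domain. Named genes were all 10 members, further G1/S and G2/M genes in L in at least 1 map or with states differing between the B cell maps, the 2 nearest genes that shared all covering domains, and cell type markers outside E in their own cell type. Genes named outside this rule are stated to have been chosen after their states were seen. The members and gene lists were chosen with earlier results of these data known. The upstream sequence of 1 member is not reported here. No test was made. Alternatives were the gene midpoint, end, majority or most downstream start, domains joined across 40 kb or of at least 100 kb, shared domains counted once, members within 300 kb of an end left out, and other gene sets. Functions were tested on simulated data, where 6 of 6 checks recovered the known domains. Analyses used Python 3.11.15, pysam 0.24.0 and scipy 1.17.1.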

Additional observations from a re-analysis of the deposited data

How the results depend on the processing

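The state of each of the 10 members was the same at the gene midpoint, the gene end, over most of the gene body, at the most downstream protein-coding start, and after joining domains across 40 kb or removing domains under 100 kb, in all 3 maps. These settings could not have changed it. Each gene body lay in 1 state in each map, and the shortest covering domain of a member measured 200 kb. The number of members that differed between CH12 and primary B cells fell from 2 to 0 when members within 300 kb of a domain end were left out. This removed Ccnd1, Ccnd2, Ccne1 and Cdk6, which include both members that differed. Counting shared domains once moved the median domain length from 870.0 to 720.0 kb in CH12 cells, from 1050 to 1340 kb in primary B cells and from 1730 to 2040 kb in the MEF map, because the INK4 pair then counted once. The median edge distance in the MEF map moved from 431 to 519 kb when chromosome ends were not counted as edges, an alternative chosen after seeing the data. Other counts of members stayed within 1.5 times, and other medians within 20 kb, of the values reported. The share of all genes in E was 44.8 to 51.8% with all gene types and 51.8 to 61.1% on autosomes. No paired analysis was possible because the deposited maps pool the replicates of a condition. With 1 map per condition, a difference of 1 state cannot be set against replicate spread, and the read depth is unknown.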

Other observations

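The 18 G2/M genes, which drive entry into and exit from mitosis, were in E in 12 cases in CH12 cells, 13 in primary B cells and 14 in the MEF map. These are 66.7%, 72.2% and 77.8%, beside 50.6%, 58.0% and 58.6% of all protein-coding genes. In CH12 cells 22.1% of all genes were in L. Of the 18, 2 were in L in CH12 cells and in M in the other maps. These were Mad2l1, a spindle checkpoint gene, in an L domain of 7060 kb in CH12 cells and M domains of 620 and 1560 kb in primary B cells and the MEF map, and Ccnb3, a cyclin gene on chromosome X, in an L domain of 3760 kb and M domains of 600.0 and 2460 kb. Foxm1, which encodes a transcription factor of G2/M genes, was in M in CH12 cells and in E in the other maps, and lay 13.0 kb from an edge in primary B cells. Ccnf and Pkmyt1, singled out after their states were seen, started in the same E domain as Cdkn1a in each map.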
